A study of Mus musculus with 6 samples.

Results

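Fgf21 and Gdf15 encode secreted hormones that cells release when their mitochondria or their protein synthesis are disturbed, and Klb and Fgfr1 encode the pair of cell-surface proteins through which FGF21 acts. These 4 genes were taken by symbol from the count tables of mouse brown adipocytes treated with rotenone or its solvent, and all 4 were present among the 26214 genes listed and among the 14709 genes that passed the expression filter. Fgf21 was 7.29-fold and Gdf15 5.68-fold higher in the rotenone library than in the DMSO libraries. Klb and Fgfr1 were lower by no more than 1.15-fold, a difference that passed the test for Fgfr1 and did not for Klb.

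The cells were immortalized primary brown preadipocytes, differentiated in culture and used as mature adipocytes on day 7. The rotenone group received 100 nM rotenone, which blocks the NADH dehydrogenase (complex I) of the mitochondrial respiratory chain, for 16 h, and the DMSO group received DMSO for the same time. Both groups had been differentiated with insulin (20 nM) and T3 (1 nM) throughout, and with IBMX (0.5 mM), dexamethasone (500 nM) and indomethacin (0.125 mM) during the first 3 days. Each group had 3 deposited files, but the 3 rotenone files held identical counts for every gene and were counted as 1 library, so the spread between replicates comes from the 3 DMSO libraries alone.

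The rotenone library held 21611589 counts and the DMSO libraries 26085061 to 29194179. Levels are CPM, counts scaled to library size, with library sizes adjusted by the TMM method. A count of 0 allowed up to 0.148 CPM in the rotenone library and 0.101 to 0.112 CPM in the DMSO libraries, for counting error only. Differences were tested with edgeR's quasi-likelihood test over all genes with Benjamini-Hochberg adjustment, and a gene is said to have risen or fallen where the adjusted p was under 0.05. By that rule 56.1% of all tested genes were called, 27.6% higher and 28.5% lower with rotenone, so a call on its own sets no gene apart. Calls that were also at least 2-fold made up 5.53% (higher) and 11.3% (lower) of genes. The labels call the replicates independent and say no more of how they were grown, so the spread behind the p-values may be technical.

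FGF21 belongs to the endocrine branch of the fibroblast growth factor family. It binds beta-klotho, the product of Klb, which hands it to an FGF receptor, chiefly the FGFR1 form in fat cells, and the receptor then signals through FRS2, RAS and the MAP kinases. GDF15 is a distant member of the TGF-beta family whose receptor, GFRAL with the kinase RET, is known from hindbrain neurons, so that fat cells are regarded as a source of this hormone and not as its target. Transcription of both hormone genes is known to respond to ATF4, the transcription factor of the integrated stress response, and Fgf21 is also a PPAR target.

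The regions before the start sites of both hormone genes are printed because these genes moved together. RefSeq on GRCm38.p6 gave 1 window for Fgf21, 2 for Gdf15, which has a pair of annotated starts, and 1 for Klb, each with 250 bases before the start and 50 after it. All are on the minus strand except Klb. Known motifs were searched on both strands, and their matches are in capitals. They were TGATGNAA (the composite site of ATF4 and C/EBP proteins), TGACGTCA (the cyclic AMP response element), CACGTG (the E-box), TGACNNNGC (the core of the antioxidant response element), the ER stress element and the direct-repeat PPAR response element. No match overlapped another in the windows printed. The sequences, 5′ to 3′ along the gene, were:
Fgf21, chr7:45615441-45615740: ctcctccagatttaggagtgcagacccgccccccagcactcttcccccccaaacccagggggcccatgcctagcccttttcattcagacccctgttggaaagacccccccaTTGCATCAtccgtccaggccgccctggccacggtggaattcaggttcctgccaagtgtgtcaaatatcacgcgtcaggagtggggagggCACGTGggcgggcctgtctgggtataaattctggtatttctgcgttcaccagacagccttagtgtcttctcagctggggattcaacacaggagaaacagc
Gdf15 upstream start, chr8:70632407-70632706: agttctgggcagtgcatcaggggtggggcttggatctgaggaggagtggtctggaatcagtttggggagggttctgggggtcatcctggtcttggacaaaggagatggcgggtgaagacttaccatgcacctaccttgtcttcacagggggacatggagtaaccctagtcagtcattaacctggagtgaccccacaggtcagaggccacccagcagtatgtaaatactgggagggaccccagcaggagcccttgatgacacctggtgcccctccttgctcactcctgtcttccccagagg
Gdf15 downstream start, chr8:70632046-70632345: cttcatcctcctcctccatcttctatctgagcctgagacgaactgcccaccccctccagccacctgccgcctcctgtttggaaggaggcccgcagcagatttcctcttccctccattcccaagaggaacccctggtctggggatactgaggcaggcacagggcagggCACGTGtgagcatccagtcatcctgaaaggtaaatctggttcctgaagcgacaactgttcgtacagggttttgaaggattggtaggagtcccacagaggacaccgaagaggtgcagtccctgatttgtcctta

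The Fgf21 window held 1 match to TGATGNAA, read on the opposite strand as TTGCATCA, from 139 to 132 bases before the start, and 1 E-box from 50 to 45 bases before it. The Gdf15 window at the downstream start held 1 E-box from 83 to 78 bases before that start, and the window at the upstream start had no match to any of the motifs. The E-box was thus the only motif searched that was found in windows of both hormone genes. Among all 32817 promoter windows, 3.97% held TGATGNAA and 7.15% held the E-box, so an E-box in a window of 300 bases is not rare. The Klb window held neither, and had 1 match to TGACNNNGC, which 12.4% of all windows hold. TGACGTCA was in 1.79% of all windows, the ER stress element in 0.119% and the PPAR response element in 0.0396%. Motifs that rare are absent from most windows, so their absence from these says little. A match is a string of letters and does not show that a factor was bound there.

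Fgf21 lies on chromosome 7 from 45613886 to 45615490 (GENCODE M21, GRCm38, minus strand). Its level was 17.4 CPM in the rotenone library, from 353 counts with a 95% Poisson interval of 15.6 to 19.3 CPM, against 2.09, 2.73 and 2.32 CPM in DMSO replicates 1, 2 and 3 (62, 79 and 62 counts). The rotenone value stood above every DMSO value, with a gap far wider than their spread. The DMSO mean was 2.38 ± 0.32 CPM (SD, n = 3), a coefficient of variation of 14%, against 12% from counting alone at that depth. Fgf21 rose by 2.87 ± 0.21 (log2 fold change ± SE; edgeR adjusted p = 1.5e-09), a 7.29-fold difference with a 95% interval of 5.35 to 9.92. It ranked 48 of 14709 genes by log2 fold change, although by DMSO level it was among the less abundant transcripts, at rank 11872.

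Gdf15 lies on chromosome 8 from 70629393 to 70632456 (GRCm38, minus strand). Its level was 112 CPM in the rotenone library, from 2283 counts with a 95% Poisson interval of 108 to 117 CPM, against 18.2, 21.2 and 20.0 CPM in DMSO replicates 1, 2 and 3. The groups were again wide apart. Gdf15 rose by 2.51 ± 0.09 on the log2 scale (edgeR adjusted p = 8.6e-14), or 5.68-fold with a 95% interval of 4.96 to 6.51, against a DMSO mean of 19.8 ± 1.5 CPM (SD, n = 3). It ranked 83 of 14709 genes. The intervals of the hormones overlap, and the difference between their fold changes was not tested.

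**Figure D1:**
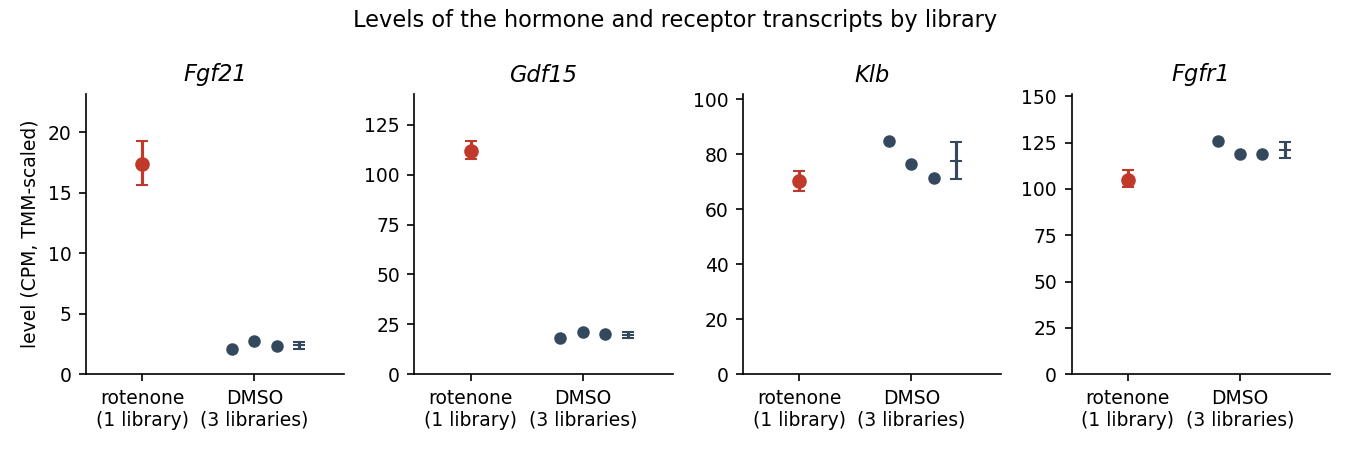
Levels (CPM on TMM-scaled library sizes, linear axis from 0) of the hormone genes Fgf21 and Gdf15 and the receptor genes Klb and Fgfr1. Red points are the rotenone library with its 95% Poisson interval, dark points the DMSO replicates, and the bar beside them their mean ± SD. Fgf21 and Gdf15 stand at 17.4 and 112 CPM with rotenone, far above the DMSO points, while Klb lies just under the lowest DMSO value and Fgfr1 further below it.

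Klb, the co-receptor gene on chromosome 5 from 65348314 to 65384007 (GRCm38, plus strand), was at 70.2 CPM in the rotenone library, against 85.0, 76.5 and 71.5 CPM in DMSO replicates 1, 2 and 3. The rotenone value was the lowest of the 4, but only just under DMSO replicate 3. Its log2 fold change of -0.15 ± 0.09 did not pass (edgeR adjusted p = 0.18), and the 95% interval ran from 0.79-fold to 1.03-fold. That interval holds both no change and a modest fall, so equal levels are not shown. Below all DMSO values is a common place to be, since 44.7% of tested genes had the rotenone library lowest and 41.5% had it highest.

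Fgfr1, the receptor kinase gene on chromosome 8 from 25513654 to 25575718 (GRCm38, plus strand), was at 105 CPM in the rotenone library, against 126, 119 and 119 CPM in DMSO replicates 1, 2 and 3. It fell by 0.20 ± 0.07 on the log2 scale (edgeR adjusted p = 0.028), or to 0.87-fold with a 95% interval of 0.78 to 0.969. The call was lost without DMSO replicate 1 (adjusted p = 0.059 in edgeR), with DESeq2 (adjusted p = 0.095) and with an assumed coefficient of variation of 20% (adjusted p = 0.72 in edgeR). Its 19 annotated transcripts, which include the receptor forms that do and do not pair with beta-klotho, cannot be told apart in counts per gene. The antisense transcript Gm16159, which overlaps exons of Fgfr1, had 35 counts in the rotenone library and 64 to 75 in the DMSO libraries, beside 2139 and 3178 to 3728 counts of Fgfr1 itself.

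Both hormone calls held in each of 14 alternative settings, with log2 fold changes of 2.74 to 2.98 for Fgf21 and 2.39 to 2.56 for Gdf15. An exact permutation test over the 4 libraries cannot give a p below 0.25, which is the value of Fgf21, Gdf15 and Fgfr1 (two-sided), and Klb gave 0.5 in that exact test. The edgeR calls therefore rest on the assumption that a rotenone library varies no more than a DMSO library. When 20% was assumed for the coefficient of variation in place of the estimated 6.9%, 9.57% of genes were higher and 14% lower. Both hormones were still among the higher ones (edgeR likelihood ratio test, adjusted p = 9.3e-16 for Fgf21 and 9.5e-14 for Gdf15). That setting replaced the quasi-likelihood test by a likelihood ratio test with the same fixed spread for every gene. Its adjusted p was therefore not always the larger. It was smaller for Fgf21 (against 1.5e-09 by quasi-likelihood) and larger for Fgfr1 (0.72, against 0.028 by quasi-likelihood).

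**Figure D2:**
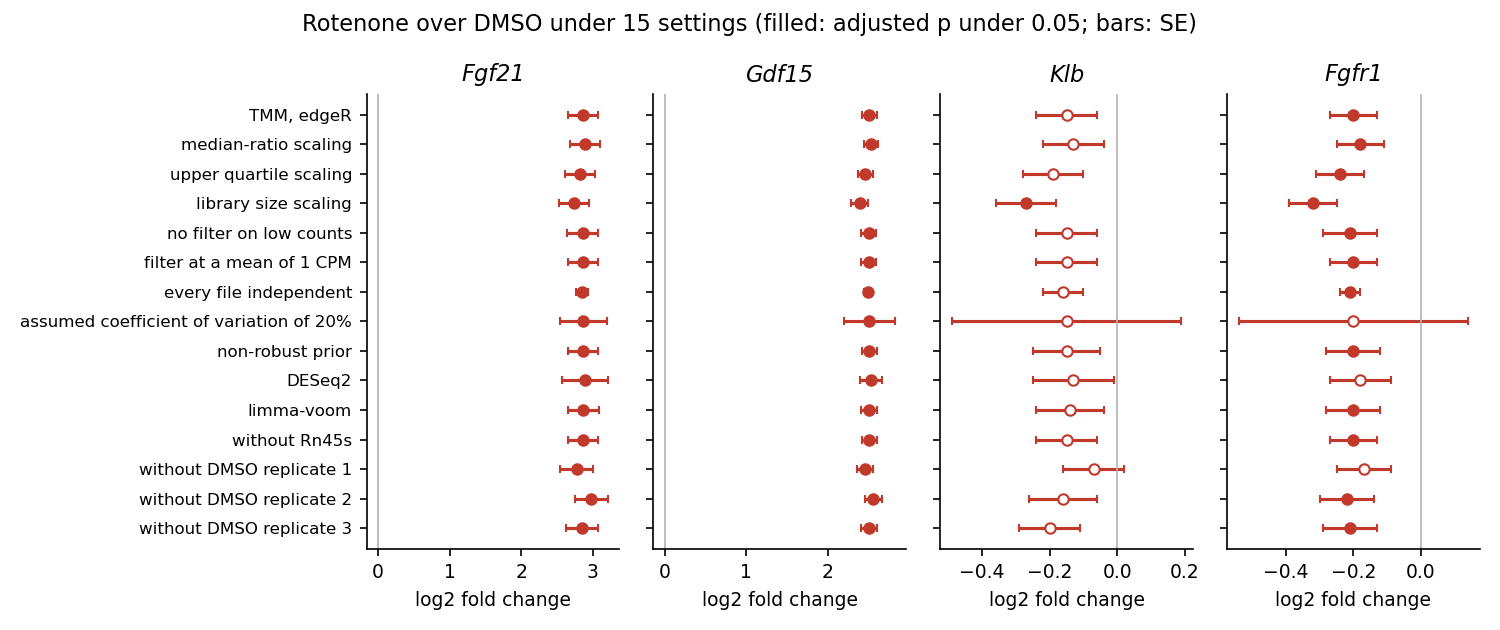
Log2 fold change (rotenone over DMSO, x axis) of the 4 genes under 15 settings of scaling, filter, test and libraries (y axis). Filled points passed an adjusted p of 0.05 and bars are SE. Fgf21 and Gdf15 are filled in every setting, Klb only with library size scaling, and Fgfr1 in all but 3 alternatives.

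Per length of transcript, which allows genes to be compared, the order of the 4 genes differed between the groups. In the rotenone library Gdf15 stood highest at 72.8 CPM per kb of its longest transcript, followed by Fgfr1 at 20.9, Klb at 19.8 and Fgf21 at 18.3 CPM per kb. The counting intervals of Fgf21 (16.4 to 20.3 CPM per kb) and Klb (18.8 to 20.9 CPM per kb) overlapped, as did those of Klb and Fgfr1. In the DMSO libraries Fgfr1 was at 24.0 ± 0.81 CPM per kb, Klb at 21.9 ± 1.9, Gdf15 at 12.8 ± 0.97 and Fgf21 at 2.51 ± 0.34 CPM per kb (SD, n = 3), and only Fgfr1 and Klb lay within about their spread of each other. With the median annotated transcript length they did not, at 63.7 ± 2.1 CPM per kb for Fgfr1 and 39.8 ± 3.5 CPM per kb for Klb (SD, n = 3). The gap between Fgf21 and its receptor genes depends on the length used: with the median annotated transcript length, Fgf21 stayed at 18.3 CPM per kb in the rotenone library while Klb was at 35.9 and Fgfr1 at 55.4.

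The ratio of Klb to Fgfr1 per kb was 0.949 in the rotenone library, against 0.961, 0.918 and 0.856 in DMSO replicates 1, 2 and 3, so the balance of co-receptor to receptor transcripts lay inside the DMSO range. The ratio of Gdf15 to Fgf21 per kb was 3.98 in the rotenone library, against 5.35, 4.77 and 5.30 in the DMSO replicates. Gdf15 thus exceeded Fgf21 in every library.

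The other FGF receptor and klotho genes changed little or were scarcely expressed. Of 8 such genes 6 were tested. Fgfr2 rose and Fgfr1 fell, beside 27.6% and 28.5% of all genes, and the other 4 did not pass. The median log2 fold change was -0.11, against -0.04 over all tested genes. Fgfr2, whose product can also pair with beta-klotho, was at 25.4 CPM in the rotenone library and 17.5 ± 0.93 CPM in the DMSO libraries (SD, n = 3). It rose by 0.54 ± 0.13 (edgeR adjusted p = 0.0015, and 0.24 with the 20% coefficient of variation). Fgfr2 overlaps exons of Ctbp2 on the same strand, and Ctbp2 had 307 counts with rotenone and 516 to 620 in the DMSO libraries. The share of Fgfr1 in the summed CPM per kb of Fgfr1 to Fgfr4 was 77.4% in the rotenone library, against 84.6%, 85.4% and 84.9% in DMSO replicates 1, 2 and 3. Fgfr1 was the main receptor transcript in each library, and its share was below all DMSO values with rotenone.

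Fgfr3 was near the limit of use at 1.58 CPM in the rotenone library and 1.27 ± 0.29 CPM in the DMSO libraries (SD, n = 3). Fgfr4, the receptor of liver, had 0 counts in the rotenone library and 1 count over the DMSO libraries, and Kl, the klotho that serves FGF23, had 0 counts in all 4. Fgfrl1, a receptor without a kinase domain, was abundant, at 166 CPM in the rotenone library and 178 ± 13 CPM in the DMSO libraries (log2 fold change -0.10 ± 0.08, edgeR adjusted p = 0.28). So was Lctl, the third klotho-family gene, at 197 CPM and 215 ± 16 CPM in the same order of groups (-0.13 ± 0.08, edgeR adjusted p = 0.18). Lctl overlaps exons of Zwilch on the opposite strand, and the strand setting of the counting is unknown here.

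Among the 22 FGF ligand genes, Fgf21 was the only one called with a rise of at least 2-fold over all 4 libraries, and without DMSO replicate 1 Fgf10 was called as well (log2 fold change 1.18, edgeR adjusted p = 0.03). Only 7 passed the expression filter, and 12 had 0 counts in every library, among them Fgf15 and Fgf23, which encode the other endocrine FGFs. Of the 7, Fgf7 and Fgf21 rose and Fgf1, Fgf2 and Fgf11 fell, beside 27.6% and 28.5% of all genes. Fgf10 and Fgf18 did not pass, and the median log2 fold change of the 7 was 0.51. Fgf1, a paracrine factor that PPAR gamma is known to induce in fat, was at 2.41 CPM in the rotenone library and 9.50 ± 0.92 CPM in the DMSO libraries (SD, n = 3), and fell by 1.98 ± 0.25 (edgeR adjusted p = 2e-06).

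Fgf7, a growth factor made by stromal cells, was at 16.1 CPM with rotenone and 11.3 ± 0.65 CPM in DMSO (SD, n = 3), and rose by 0.51 ± 0.16 (edgeR adjusted p = 0.01). That call did not survive the 20% coefficient of variation (adjusted p = 0.28 in edgeR). Fgf11, an intracellular FGF homolog, was at 1.68 CPM with rotenone and 3.74 ± 0.52 CPM in DMSO (SD, n = 3), and fell by 1.16 ± 0.34 (edgeR adjusted p = 0.0073). Fgf2 had 1 count with rotenone and 61 over the 3 DMSO libraries, a ratio of 0.0688 with a 95% counting interval of 0.0017 to 0.4. Fgf2 overlaps exons of its antisense partner Nudt6, and its call was lost with DESeq2 (adjusted p = 0.057) and with limma-voom (adjusted p = 0.061). Fgf10 (2.61 CPM with rotenone; 1.49 ± 0.89 CPM in DMSO) had a log2 fold change of 0.79 ± 0.59 (edgeR adjusted p = 0.28), which was 0.39 without DMSO replicate 3 (edgeR adjusted p = 0.43) besides the 1.18 given above without DMSO replicate 1. Fgf18 was low in both groups, at 0.394 CPM with rotenone and 0.244 ± 0.084 CPM in DMSO, and did not pass.

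**Figure D3:**
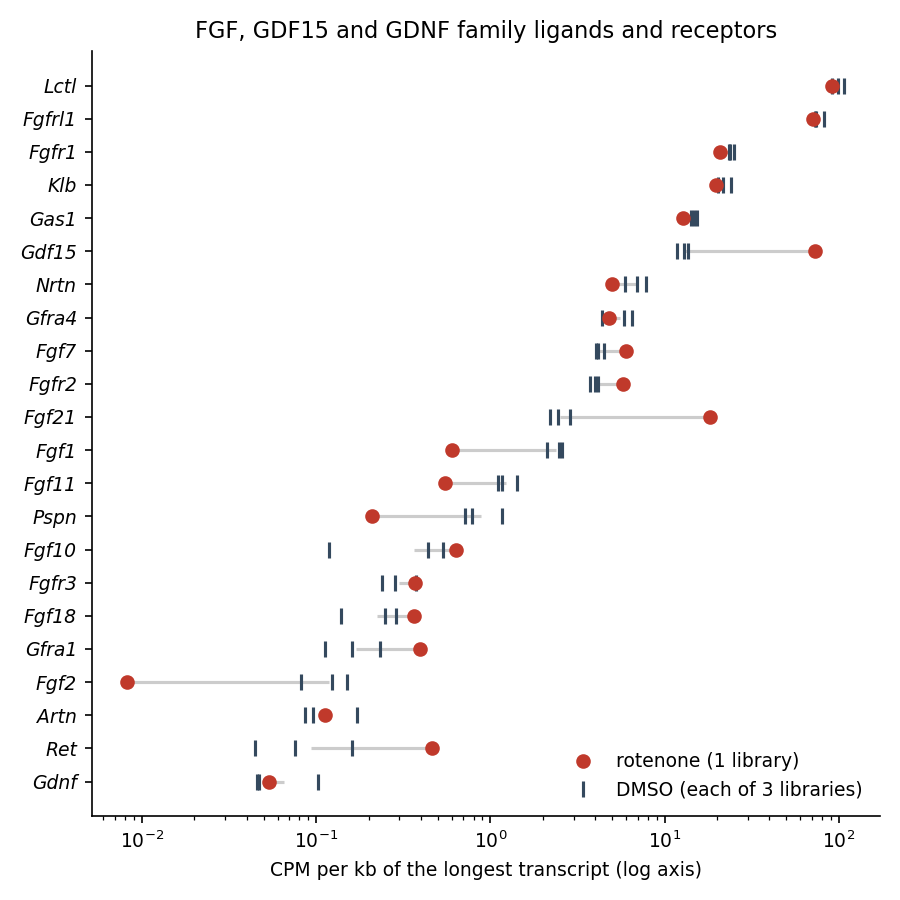
Levels (CPM per kb of the longest transcript, log axis) of each tested gene of the FGF ligand, FGF receptor and GDNF family lists, with Gdf15. Red points are the rotenone library and dark ticks the 3 DMSO libraries. Fgf21 and Gdf15 show long gaps to the right of their DMSO ticks, Fgf1 and Fgf2 gaps to the left, and Fgfr1 and Klb almost none.

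Gfral, the gene of the GDF15-binding receptor, had 0 counts in all 4 libraries, which allows up to 0.148 CPM in the rotenone library. Ret, the kinase that GFRAL shares with the GDNF receptors, was at 2.51 CPM in the rotenone library (51 counts), against 26, 7 and 11 counts in DMSO replicates 1, 2 and 3 (0.511 ± 0.33 CPM, SD, n = 3), and rose by 2.28 ± 0.62 (edgeR adjusted p = 0.0039). Without DMSO replicate 1, the library with the most DMSO counts of Ret, the value was 2.94. The rise therefore rests on few counts, with a wide error.

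Ret was the only gene called of 8 tested in this list of 11, beside 56.1% of all genes called in either direction. The median log2 fold change of the list was -0.21. Gfra1, the GDNF co-receptor, was at 1.82 CPM with rotenone and 0.783 ± 0.28 CPM in DMSO (1.21 ± 0.57; edgeR adjusted p = 0.076, and 0.034 without DMSO replicate 1). Gas1, a membrane protein related to the GFRA co-receptors, had 37.8 CPM with rotenone and 43.6 ± 1.9 CPM in DMSO, Gfra4 8.57 and 9.97 ± 2.0 CPM and the ligand gene Nrtn 5.07 and 7.04 ± 0.98 CPM in that order. Pspn had 2 counts with rotenone and 36 over the DMSO libraries, a ratio of 0.233 (95% counting interval 0.027 to 0.91), and did not pass edgeR (adjusted p = 0.18). Gdnf (4 counts with rotenone), Artn (5) and Gfra2 (7) were close to the limit of detection, and Gfra3 had 0 counts in each library.

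Of 21 tested genes of the route from the FGF receptor to the MAP kinases, 3 rose and 10 fell, beside 27.6% and 28.5% of all genes, with a median log2 fold change of -0.24 against -0.04 over all genes. Map2k2 (MEK2) rose by 0.79 ± 0.07 and Hras by 0.61 ± 0.12, while Ptpn11, the phosphatase SHP2, fell by 0.56 ± 0.08 and the receptor adaptor Frs2 by 0.34 ± 0.09 (edgeR adjusted p of 0.0026 or less for each). Flrt1, a membrane protein that binds FGF receptors, was at 0.69 CPM with rotenone and 4.28 ± 0.31 CPM in DMSO, and fell by 2.63 ± 0.39 (edgeR adjusted p = 1.2e-05). With the 20% coefficient of variation Flrt1 was the only gene of this route still called.

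Genes that FGF and ERK signalling is known to induce did not move together. Of 15 tested, 4 rose and 6 fell, beside 27.6% and 28.5% of all genes, with a median log2 fold change of -0.11. Dusp6, the ERK phosphatase often read as a gauge of FGF signalling, was at 3.25 CPM in the rotenone library and 3.23 ± 0.70 CPM in the DMSO libraries (SD, n = 3), with a log2 fold change of 0.01 ± 0.32. Etv4 rose by 1.81 ± 0.39 (3.79 CPM with rotenone; 1.08 ± 0.14 CPM in DMSO; edgeR adjusted p = 0.00059) and its paralog Etv5 fell by 1.17 ± 0.20 (5.62 CPM; 12.7 ± 1.3 CPM; edgeR adjusted p = 5.8e-05). These related ETS factors thus went opposite ways.

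The feedback inhibitors were divided in the same manner. Spry1 rose by 0.89 ± 0.16 and Spry2 by 0.64 ± 0.19. Spry4 fell by 0.80 ± 0.23, Spred1 by 0.90 ± 0.12 and Spred2 by 0.97 ± 0.16. The edgeR adjusted p was 0.0078 or less for each of these genes. With the 20% coefficient of variation Spry1 and Spred2 kept their calls. Spry2, Spry4 and Spred1 lost theirs (adjusted p = 0.16, 0.11 and 0.054 in edgeR). The nuclear phosphatase genes split as well, Dusp4 with a rise of 0.98 ± 0.11 and Dusp5 with a fall of 1.33 ± 0.26. Egr1 had 73.8 CPM with rotenone and 39.9 ± 10 CPM in DMSO and did not pass (0.89 ± 0.35, edgeR adjusted p = 0.14), nor did Fos (9.26 and 8.95 ± 2.0 CPM in that order).

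Heparan sulfate proteoglycans, the surface molecules that paracrine FGFs need and endocrine FGFs bind weakly, had 7 of 10 tested genes higher and 2 lower, beside 27.6% and 28.5% of all genes, with a median log2 fold change of 0.31. With the 20% coefficient of variation 1 was higher and 1 lower, beside 9.57% and 14% of all genes. Gpc4 rose by 0.84 ± 0.08, Hspg2 (perlecan) by 0.49 ± 0.06 and Gpc1 by 0.44 ± 0.09. Syndecan genes differed: Sdc4 was at 66.5 CPM with rotenone and 236 ± 15 CPM in DMSO (SD, n = 3), and fell by 1.83 ± 0.09 (edgeR adjusted p = 2.7e-12), Sdc3 fell by 0.44 ± 0.12, and Sdc1 rose by 0.34 ± 0.07. Gpc4 and Sdc4 were the genes still called with the 20% coefficient of variation.

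Of the proteases that act on these hormones or on the GDF15 receptor, 5 of 7 were tested. Mmp14, a membrane metalloprotease known to cleave GFRAL, rose by 1.38 ± 0.07 (211 CPM with rotenone; 81.1 ± 3.5 CPM in DMSO; edgeR adjusted p = 7.4e-12), and Furin, a convertase that matures TGF-beta family precursors, fell by 0.74 ± 0.10 (33.3 CPM; 55.4 ± 2.1 CPM; edgeR adjusted p = 3.3e-06). The Furin call was lost with the 20% coefficient of variation (adjusted p = 0.12 in edgeR). Fap, a protease known to inactivate human FGF21 by clipping its tail, was low in both groups, at 0.542 CPM with rotenone and 0.626 ± 0.14 CPM in DMSO.

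**Figure D4:**
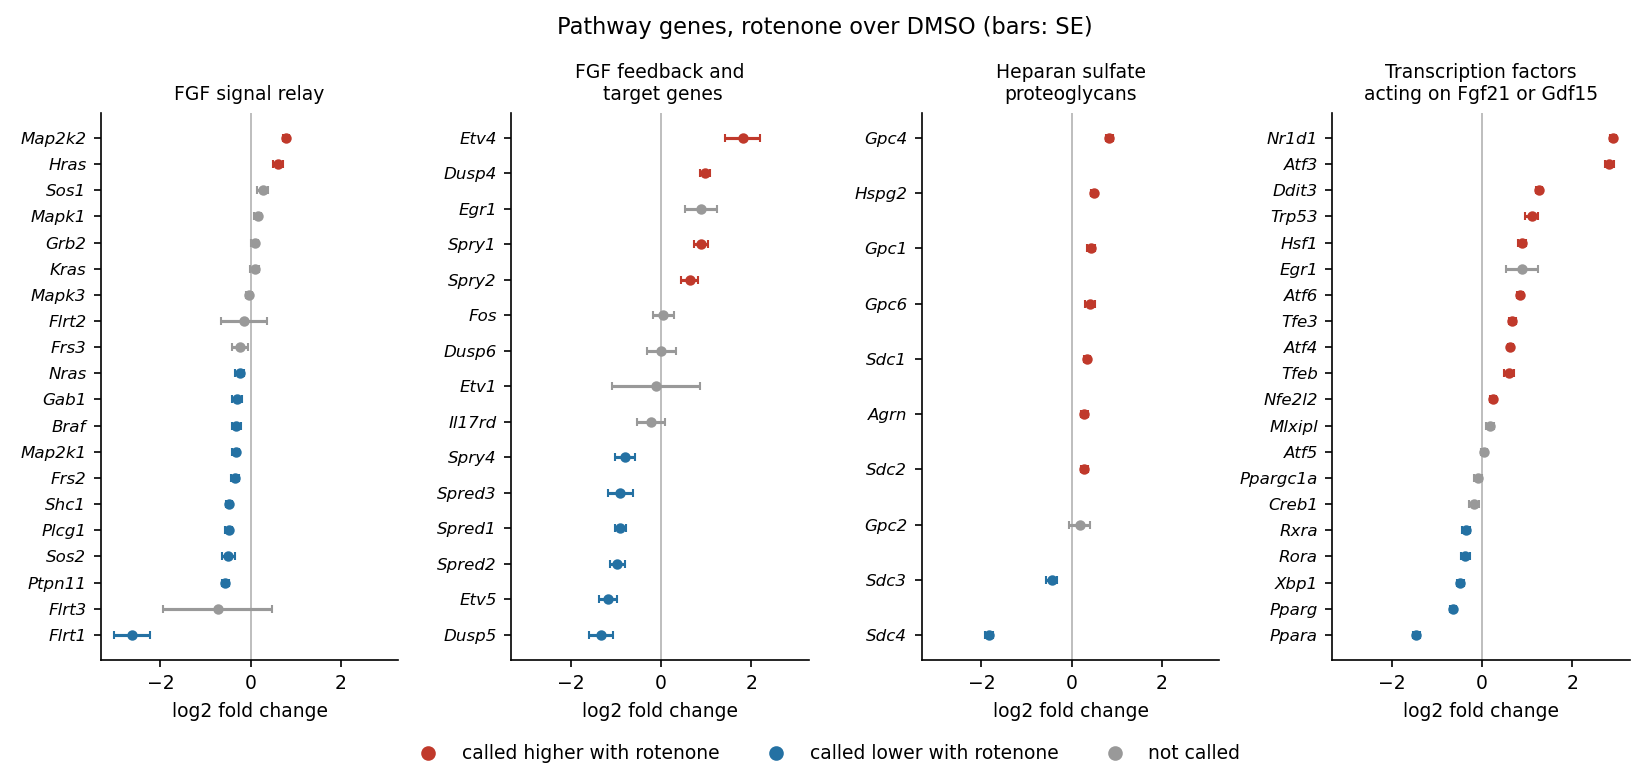
Log2 fold changes (rotenone over DMSO, x axis, bars SE) of tested genes in 4 lists (1 relay gene is not drawn) around the hormones: signal relay, feedback and target genes, heparan sulfate proteoglycans, and transcription factors. Red points were called higher, blue points lower and grey points were not called. The relay genes drawn run from -2.63 for Flrt1 to 0.79 for Map2k2, and the feedback genes from -1.33 for Dusp5 to 1.81 for Etv4.

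Of 20 tested transcription factors known to act on Fgf21 or Gdf15, 10 rose and 5 fell, beside 27.6% and 28.5% of all genes, with a median log2 fold change of 0.42; this list was assembled with earlier results on several of its genes known. Nr1d1 (REV-ERB alpha), a repressor of the circadian clock, was at 542 CPM in the rotenone library and 72.3 ± 5.3 CPM in the DMSO libraries (SD, n = 3). Its rise was 2.91 ± 0.07 (edgeR adjusted p = 1.9e-16). Nr1d1 overlaps exons of Thra on the opposite strand. Thra had 5519 counts in the rotenone library and 4410 to 4802 in the DMSO libraries, beside 11001 and 1985 to 2090 counts of Nr1d1. Atf3, a stress-induced factor of the ATF family, was at 105 CPM and 14.8 ± 2.1 CPM in that order, and rose by 2.83 ± 0.11 (edgeR adjusted p = 3.5e-13). Ddit3 (CHOP), which works with ATF4, was at 942 CPM in the rotenone library and 395 ± 27 CPM in the DMSO libraries, and Trp53 (p53), a known inducer of Gdf15, was at 96.7 CPM and 45.0 ± 7.1 CPM in that order (SD, n = 3; log2 fold change 1.1 ± 0.15, edgeR adjusted p = 0.00052). Tfeb and Tfe3, E-box factors of lysosomal stress, rose by 0.59 ± 0.11 and 0.67 ± 0.08, both calls lost with the 20% coefficient of variation (adjusted p = 0.19 and 0.12 in edgeR). Atf4 was at 963 CPM in the rotenone library and 621 ± 19 CPM in the DMSO libraries (SD, n = 3). Its rise was 0.63 ± 0.06 on the log2 scale (edgeR adjusted p = 6.4e-08). When the spread was assumed to be 20%, Atf4 no longer passed (adjusted p = 0.14 in edgeR). Atf5 had 418 CPM with rotenone and 404 ± 26 CPM in DMSO and did not pass (0.05 ± 0.07, edgeR adjusted p = 0.58). Ppara, a known activator of Fgf21, was at 62.5 CPM with rotenone and 173 ± 8.3 CPM in DMSO (SD, n = 3), and fell by 1.46 ± 0.08 (edgeR adjusted p = 3.3e-11). Pparg fell by 0.65 ± 0.07 and their partner Rxra by 0.35 ± 0.09, both calls lost with the 20% coefficient of variation (adjusted p = 0.16 and 0.5 in edgeR). The part of any of these factors in the hormone changes was not tested.

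Against the other secreted factors of brown fat, Fgf21 and Gdf15 had the highest fold changes among called genes. Of 22 tested, 7 rose and 9 fell, beside 27.6% and 28.5% of all genes, with a median log2 fold change of -0.27. Slit2 rose by 1.30 ± 0.17, and Metrnl, Angptl6 and Vegfb by less than 2-fold. Angptl4, an inhibitor of lipoprotein lipase and a known PPAR target, was at 105 CPM with rotenone and 647 ± 16 CPM in DMSO (SD, n = 3), and fell by 2.63 ± 0.08 (edgeR adjusted p = 2.6e-15). Lep, the gene of leptin, fell by 1.94 ± 0.12 (16.9 CPM; 64.8 ± 6.2 CPM). Rbp4, the retinol carrier, fell by 1.83 ± 0.07 (91.4 CPM with rotenone; 324 ± 5.6 CPM in DMSO), and the neuregulin gene Nrg4 by 0.86 ± 0.15. Il6 had 12 counts with rotenone and 2 to 4 in the DMSO libraries and did not pass (edgeR adjusted p = 0.065).

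The genes whose pattern over the 4 libraries lay nearest to each hormone were sought among 10353 genes averaging 5 CPM or more, by the Euclidean distance between log2(CPM + 0.5) values centred on the DMSO mean. Nearest to Fgf21 were Tnc (distance 0.092), Acta2 (0.213) and Cnn1 (0.216), and nearest to Gdf15 were Acta2 (0.0399), Tnc (0.134) and Tagln (0.144). Cnn1 reached a mean of 5 CPM only through its level of 18.0 CPM in the rotenone library, against 1.89, 3.18 and 2.40 CPM in DMSO replicates 1, 2 and 3. For Klb the nearest were Ccdc25 (0.0346), Cenpi (0.0375) and Cacna2d1 (0.0389), and for Fgfr1 they were Ppcs (0.00919), Vps33a (0.0127) and Klhl20 (0.0154). The distance is set mostly by the rotenone library, so likeness here means a similar size of difference after 0.5 CPM was added. The edgeR log2 fold changes themselves were 2.62 for Tnc, 2.46 for Acta2 and 2.85 for Cnn1, against 2.87 for Fgf21.

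Markers of the cells were measured beside these results. Fat cell genes marked all 4 libraries, with Fabp4 at 5310 CPM with rotenone and 5120 ± 400 CPM in DMSO, while Dio2 had 0 counts with rotenone and 0 to 7 in the DMSO libraries. Of 13 tested brown adipocyte markers 3 rose and 7 fell, beside 27.6% and 28.5% of all genes. The summed level of the list was 8740 CPM with rotenone and 9930 to 11000 CPM in DMSO, of which Fabp4 made up the largest share. Some markers of that list fell far more than the sum. Cebpa, a master factor of fat cell differentiation, fell by 2.31 ± 0.08 and Prdm16, a factor of brown fat identity, by 2.13 ± 0.14. The lipase gene Lipe fell by 1.88 ± 0.07 and Ucp1, the uncoupling protein of brown fat, by 1.86 ± 0.21. The edgeR adjusted p was 0.00038 or less for each of these falls. The 3 that rose were Elovl3 (0.60 ± 0.11), Cox8b (0.30 ± 0.10) and Cox7a1 (0.20 ± 0.06), calls lost with the 20% coefficient of variation. Cidea (-0.06 ± 0.08) and Ppargc1a (-0.08 ± 0.09) did not pass. Among markers of preadipocytes and fibroblasts, 8 of 11 rose and 1 fell, beside 27.6% and 28.5% of all genes. Their summed level was 4390 CPM with rotenone and 1440 to 1620 CPM in DMSO. Col1a1 made up the largest share, at 2120 CPM with rotenone and 883 ± 68 CPM in DMSO, and Acta2 and Tagln were at 852 and 654 CPM with rotenone. Pdgfra was the gene that fell, by 1.11 ± 0.16. Cd34 (0.02 ± 0.40) and Ly6a (0.78 ± 0.30) did not pass, although Ly6a was called in 7 of 14 alternatives. The part of these markers in the hormone changes was not tested. In bulk RNA, fewer cells of a type and less RNA per cell cannot be told apart.

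Liver is the main source of circulating FGF21, and hepatocyte markers were checked for that reason. Apoa2 was at 12.6 CPM with rotenone and 11.4 ± 0.87 CPM in DMSO. Alb had 0 counts in the rotenone library and 107, 0 and 0 in DMSO replicates 1, 2 and 3, and Ttr, Cyp2e1, Apoa1, Serpina1a, Fgb and Ahsg also had 0 counts with rotenone and at most 15 in a DMSO library. The rise of Fgf21 was 2.78 ± 0.23 without DMSO replicate 1. Of the macrophage markers Ptprc, Adgre1 and Mrc1 had 0 counts in every library, although Cd68 rose by 2.38 ± 0.23, and the summed level of 5 endothelial markers was at most 1.03 CPM in any library. Of 10 skeletal muscle markers 2 were tested. Acta1, skeletal muscle actin, was at 6.65 CPM with rotenone (135 counts) and 0.222 ± 0.083 CPM in DMSO (4 to 9 counts), and rose by 4.87 ± 0.45 (edgeR adjusted p = 2.7e-08), while the desmin gene Des fell by 0.29 ± 0.09, a call lost with DESeq2 and with the 20% coefficient of variation. Myh1, Myh2, Myh4, Myh7 and Myod1 had 0 counts in every library, and the summed level of the list was 48.3 CPM with rotenone and 50.1 to 52.2 CPM in DMSO. The part of Acta1 and Cd68 in the hormone changes was not tested.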

How the data were processed

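RNA-seq was done on mouse brown adipocytes of an immortalized line. The deposited files hold raw read counts for each gene symbol; per the submitters' processing notes, TopHat2 and mm10 were used. No source used here gives the counting program, annotation or strand setting.

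The 3 rotenone files were identical and entered once, against 3 DMSO libraries. Totals were 21611589 to 29194179 counts, which limits precision as the Poisson intervals show. Counts were scaled by TMM, filtered with filterByExpr and tested with edgeR 4.0.16 (R 4.3.3), robust quasi-likelihood, with 2 residual degrees of freedom and Benjamini-Hochberg adjustment over 14709 genes. The SE was the size of the log2 fold change divided by the square root of F. The procedure was also run on simulated data in which every library had the same spread. That run could not test whether a rotenone library varies more than a DMSO library. Alternatives included DESeq2 1.42.0, limma-voom (limma 3.58.1), other scalings and filters, leaving out libraries, and an assumed coefficient of variation of 20%. The last used edgeR's likelihood ratio test with that spread fixed for every gene.

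The members and 15 gene lists were chosen with earlier results of these data known. Named genes were the 4 members, the genes of the FGF ligand, FGF receptor and GDNF family lists, up to 5 called genes averaging 1 CPM or more with the largest changes in each other list, and the 3 genes nearest to each member. Other genes named were chosen after their values were seen. Values of 1 further gene under that rule are left unreported. Lengths and positions are from GENCODE M21 (GRCm38). Promoter sequences are from RefSeq (GRCm38.p6), matched by symbol for Fgf21, Gdf15 and Klb; Fgfr1 was not matched.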

Additional observations from a re-analysis of the deposited data

How the results depend on the processing

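In 14 alternatives Fgf21 and Gdf15 kept their direction and their calls. Klb passed only with library size scaling (log2 fold change -0.27, edgeR adjusted p = 0.018), which moved the median of all genes to -0.16, against -0.04 with TMM; relative to that median Klb was at -0.11 with either scaling. Fgfr1 kept its direction in all 14 and lost its call in 3: -0.20 with the 20% coefficient of variation, -0.18 with DESeq2, and without DMSO replicate 1 (-0.17; range over the left-out libraries -0.22 to -0.17).

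With the 20% coefficient of variation 1408 genes were higher and 2063 lower, against 4054 and 4197. The called members of the lists (higher and lower) were then 1 FGF ligand higher (against 2 with the estimated spread), 0 and 0 FGF receptors (against 1 and 1), 2 GDNF family genes higher (against 1), 0 and 1 relay genes (against 3 and 10), 3 feedback genes lower (against 6), 1 and 1 proteoglycans (against 7 and 2), 0 proteases lower (against 1), 1 transcription factor lower (against 5) and 4 secreted factors lower (against 9). Beside the counts of 0, the unadjusted p was under 0.05 in edgeR for 0 and 0 receptors, for 2 relay genes (Map2k2 among them) and for 1 protease (Furin), and DESeq2 called 0 receptors lower (1 at an unadjusted p, Fgfr1).

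Receptors called lower numbered 4 with library size scaling, 2 with every file taken as independent, and 0 to 1 over the left-out libraries (0 without DMSO replicate 1, where Fgfr1 alone had an unadjusted p under 0.05 in edgeR). GDNF family genes called higher were 2 with every file independent and 1 to 2 over the left-out libraries (2 without DMSO replicate 1, which adds Gfra1). Those called lower were 1 with upper quartile scaling, 2 with library size scaling, 2 with every file independent and 0 to 1 over the left-out libraries, against 0 in the edgeR test (0 at an unadjusted p, and 0 with DESeq2). Relay genes called higher were 6 with every file independent. Proteases called lower were 2 with upper quartile scaling, library size scaling, no filter and every file independent, and 1 to 2 over the left-out libraries (2 without DMSO replicates 1 or 2). The cause of these differences was not tested. Treating identical files as independent overstates replication.

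No paired analysis was possible because the rotenone files are copies of 1 library, although they carry the same replicate numbers as the DMSO files. The values of Gdnf, Artn, Pspn and Fgf2, with few counts, are limited by depth.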

Other observations

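Several hepatocyte transcripts had most of their counts in DMSO replicate 1. Alb had 0 counts in the rotenone library and 107, 0 and 0 in DMSO replicates 1, 2 and 3, Ttr had 0 and then 13, 0 and 0, and Cyp2e1 had 0 and then 10, 0 and 0. Fgf21 had 62, 79 and 62 counts in DMSO replicates 1, 2 and 3 (2.09, 2.73 and 2.32 CPM). Their coefficient of variation was 14%, against 12% from counting alone, so the order of these replicates carries little information. Any link between Fgf21 and the hepatocyte transcripts was not tested.

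Transcripts of Lctl and Fgfrl1 were more abundant per length than those of Klb and Fgfr1. Lctl stood at 90.8 CPM per kb with rotenone and 99.1 CPM per kb in DMSO, and Fgfrl1 at 71.1 and 76.3 CPM per kb in that order.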
